A study of Homo sapiens with 8 samples.

Results

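Long intergenic noncoding RNAs (lincRNAs) were examined in RNA from human endothelium grown out of WTC-TJP1, which is an established line of induced pluripotent stem cells. The members were the rows of the deposited gene table with the biotype lincRNA and a mean of at least 100 raw counts over the 8 samples, without H19, MEG3, CARMN, KCNQ1OT1 and names that start with HOX. The rule kept 64 genes of 2956 lincRNA rows and 30386 genes in all. Of the names left out, MEG3 and CARMN would otherwise have been members. The mean count alone chose the members and is described without a test. Endothelial cells (iEC) and retinal endothelial cells (iREC) had 4 samples each, which the labels letter C, D, E and F within a group. All were taken at passage 1, came from the same line, and carry the same cell type label of stem cell-derived endothelium. The labels name no treatment or genotype that separates the groups, and they do not say that the samples were separate cultures, so p-values measure the spread between these samples.

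A lincRNA is transcribed and processed much like a messenger RNA but is not known to be translated. Some members act as RNA scaffolds in the nucleus, such as MALAT1 in nuclear speckles and NEAT1 in paraspeckles, some bind proteins in the cytoplasm, and others are known mainly as the precursors of microRNAs (miRNAs) or small nucleolar RNAs (snoRNAs) that lie within them. In endothelium, MALAT1 has been described in the control of growth, and the miRNAs made from the MIR503HG and MIR222HG loci in the control of vessel formation. Many lincRNAs start close to a protein-coding gene, often in the opposite direction from a shared promoter.

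The biotype did not always mean that a member stood alone in the genome. Among the 64, 25 shared exon bases with another gene of the table, 4 of them called between the groups, and 17 overlapped the body of a protein-coding gene. In 7 the gene that shared exon bases had the higher mean count. Whether counting used the strand is not given in the sources used here, so reads of such pairs may not have been told apart. The label of the set also speaks of endothelial RNAs: of 4 lncRNAs listed for reports in endothelial cells, LINC00607 alone was a member. SENCR and TUG1 are listed under other biotypes, and LINC00520 had a mean of 4.50 counts. For these reasons the set is called the abundant lincRNAs below.

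Sequences are shown for the members on which the results turn. They come from the reference annotation (GENCODE release 29, GRCh38) for the transcript ends and from RefSeq (GRCh38.p14) for the rest, and all are written 5′ to 3′. The first pair is the A-rich tract near the end of the longest form of MALAT1 and NEAT1. It is shown because these longest forms are cut at this tract and end without a regular poly(A) tail. The libraries were selected on poly-T beads, and counts per gene do not tell the forms of a gene apart. Capitals mark the tract, and each stretch ends with it, at chr11:65506057-65506116 and chr11:65445481-65445540, plus strand. In the annotation 353 further transcript bases follow the tract in MALAT1 and 0 in NEAT1.
MALAT1: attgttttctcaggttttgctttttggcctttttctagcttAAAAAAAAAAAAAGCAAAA
NEAT1: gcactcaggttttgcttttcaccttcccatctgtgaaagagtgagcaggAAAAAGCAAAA

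The second set holds 1 mature miRNA of each miRNA gene in or beside the host genes that were called. They are grouped by the seed (bases 2 to 8), which is in capitals. The other mature forms listed, miR-503-3p, miR-424-3p and miR-222-5p, are not in this set. MIR503HG, higher in iREC, contains MIR503 and starts within MIR424. MIR222HG, lower in iREC, contains MIR221 and MIR222. The seed GCUACAU of the last pair is shared by these 2 alone among 2370 mature human names. The seed of miR-424-5p occurs in 7 names, and that of miR-503-5p, which differs from it, in 1. Mature positions on the X chromosome, minus strand, are chrX:134546371-134546393, chrX:134546680-134546701, chrX:45746180-45746202 and chrX:45747036-45747056, in the order of the lines.
miR-503-5p: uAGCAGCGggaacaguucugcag
miR-424-5p: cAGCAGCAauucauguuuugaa
miR-221-3p: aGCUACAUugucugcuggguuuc
miR-222-3p: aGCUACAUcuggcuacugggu

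The MIR424 gene (chrX:134546614-134546711, minus strand) is shown whole, because its 3′ end shares 19 exon bases with the first exon of MIR503HG. Capitals mark the bases of miR-424-5p and then of miR-424-3p.
MIR424: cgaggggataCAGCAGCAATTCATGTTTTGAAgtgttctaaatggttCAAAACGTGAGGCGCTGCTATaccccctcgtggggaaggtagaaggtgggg

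The last pair lies between the starts of 2 lincRNAs and the protein-coding genes that run away from them, SNHG18 with SEMA5A and TP53TG1 with CROT. Both RNAs and both neighbours were higher in iREC. The 124 bases at chr5:9546076-9546199, written on the plus strand, hold 22 CG dinucleotides, in capitals, and are 87.9% G or C. The 165 bases at chr7:87345516-87345680, written on the minus strand, are 69.7% G or C, and capitals mark CCAAT on the opposite strand, which is found 2 times.
SNHG18 to SEMA5A: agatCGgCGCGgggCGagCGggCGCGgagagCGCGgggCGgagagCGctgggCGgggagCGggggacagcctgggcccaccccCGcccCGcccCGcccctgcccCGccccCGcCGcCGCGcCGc
TP53TG1 to CROT: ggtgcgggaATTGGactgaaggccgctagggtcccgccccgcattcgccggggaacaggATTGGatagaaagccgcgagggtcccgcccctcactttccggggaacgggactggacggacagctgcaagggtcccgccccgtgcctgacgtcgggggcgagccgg

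RefSeq promoters (250 bases before to 50 after a start) were found for 32 of 63 members looked up, as 40 entries. CCAAT, searched as CCAAT and ATTGG, was in 52.5% of these entries and in 34.6% of all 35116. CCGGAAG or CTTCCGG was in 15% against 10.3%, TGACGTCA in 2.5% against 1.85%, CACGTG in 2.5% against 7.26%, and TATAAA or TTTATA in 5% against 11.5%. The median G or C content was 62.2% against 58.7%, with a median of 22.5 CG dinucleotides against 14. These matches are descriptions of the letters; some entries are alternative starts of 1 gene, and none of the differences was tested.

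Total counts ran from 13739364 to 16971865 per sample, so 3 counts, taken as the floor, equalled 0.178 to 0.215 CPM (the counts-per-million scale, on libraries scaled by the trimmed mean of M values, TMM). That floor covers counting error only. All 8 endothelial markers were present in every sample, and of these 2 were called higher and 2 lower in iREC. PECAM1 had 1927 to 2605 CPM in iEC and 493 to 855 in iREC, CDH5 1098 to 1642 and 517 to 983, TEK 33.5 to 84.0 and 466 to 1118, and CLDN5 309 to 405 and 357 to 849. Sample F of iREC stood apart. Its 8 endothelial markers summed to 4018 CPM against 6182 to 8959 in the other 7 samples, its 10 mesenchymal and mural markers to 5610 against 103 to 2032, its 6 epithelial markers to 4924 against 302 to 1174, and its 6 pluripotency markers to 507 against 39.0 to 173. That last sum was mostly LIN28A, with 482 CPM in iREC F. POU5F1, SOX2 and L1TD1 had 0.393, 0.393 and 2.56 CPM there. DPPA4 had 22.5 CPM there, its lowest value in any sample, and was called lower in iREC. The 5 blood markers summed to 24.3 to 46.5 CPM in all samples, with SPI1 and CD68 at or under the floor throughout, as was NANOG among the pluripotency markers. RUNX1, nearly all of that sum in iEC, had 24.3 to 46.4 CPM there and 13.9 to 16.2 in iREC, and was called lower in iREC. The other 2 tested blood markers were called higher: MS4A6A had 0 counts in every iEC sample and 6.41 to 24.3 CPM in iREC, and PTPRC had 0 counts in every iEC sample and 0.794 to 2.75 CPM in iREC. Sample F also had the highest mesenchymal and epithelial sums of the iEC group, 448 and 1174 CPM. The mesenchymal and mural sums did not overlap between the groups, with 103 to 448 CPM in iEC and 1283 to 5610 in iREC, and 3 of 8 tested genes of that list were called higher. The part of these marker levels in the differences below was not tested. In bulk RNA, fewer cells of a type and less RNA per cell cannot be told apart. Results below that rest on this sample are given with and without it.

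The abundant lincRNAs took 0.195% to 0.461% of each library's counts, lowest in iREC F and highest in iREC E. MALAT1 alone made up 27.7% to 49.9% of those counts. Levels of different genes are compared on the deposited FPKM scale, which divides by gene length. Mean FPKM over the 8 samples ran from 0.515 for FTX to 144 for MALAT1, with a median of 3.40, against a median of 7.81 for protein-coding genes above the same mean count. Lengths ran from 342 bases (SNHG19) to 28487 (FTX), with a median of 3514. NORAD, which binds PUMILIO proteins in the cytoplasm, followed MALAT1 with 84.8 FPKM, then MIR503HG with 76.3 (12.8 in iEC and 139.8 in iREC), SNHG19 with 34.9, SNHG8 with 26.5, AC009414.2 with 24.1, MIR22HG with 16.96 and AC090204.1 with 14.7. NEAT1 was in place 11 with 10.02 FPKM, a value that divides by 22767 bases and thus by its long form.

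**Figure D1:**
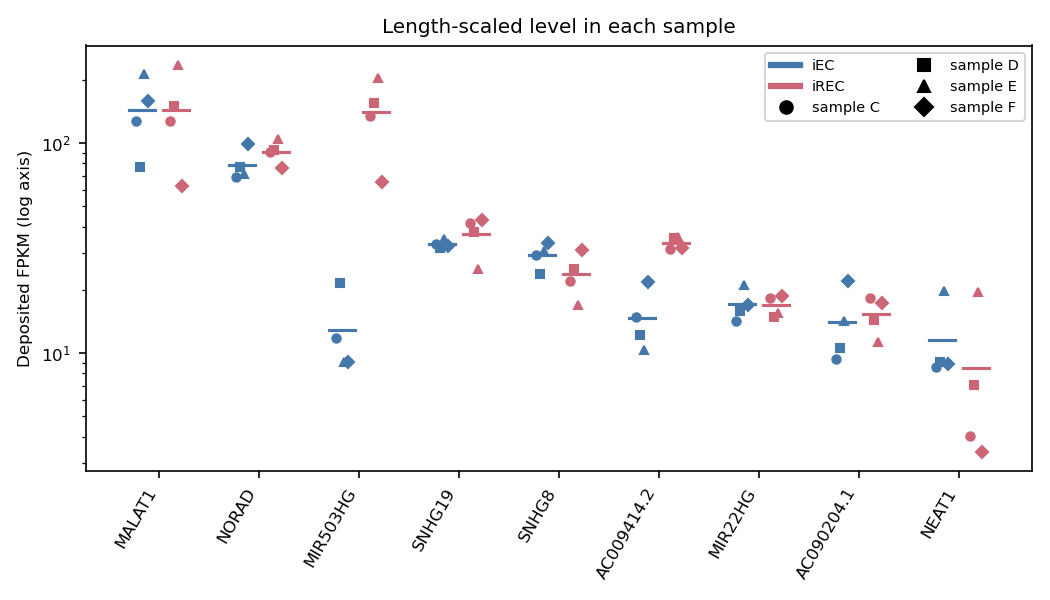
Deposited FPKM (log axis) of the 8 lincRNAs with the highest mean and of NEAT1, with 1 symbol per sample by replicate letter and the group mean as a line. MIR503HG and AC009414.2 have no overlap between iEC (blue) and iREC (red), while in MALAT1 and NEAT1 the groups overlap.

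Near the threshold, AF127577.4 (mean 100.1 counts), GATA3-AS1 (100.6) and MIR4458HG (101.8) lay just inside, and LINC01235 (93.6), AC005261.1 (92.2) and AC092368.3 (89.2) just outside. Because the mean runs over both groups, 10 members had a mean under 100 counts in iEC only and 11 in iREC only, and such genes were kept by the group in which they were high. The other 43 members reached 100 counts in both groups.

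The comparison asked which of these RNAs differed between iREC and iEC. LINC00607, SNHG18, GATA3-AS1 and the miRNA host MIR503HG were at least 8-fold higher in iREC by the fit, and LINC01480 and LINC02407 at least 8-fold lower. Smaller rises were found in TP53TG1, DUBR and AC009414.2, and smaller falls in MIR222HG, OLMALINC and others. MALAT1 and NORAD, the members with the highest FPKM, did not pass the test, nor did NEAT1. All 64 passed the filter on low counts and were tested in a fit of 15330 genes. edgeR's quasi-likelihood test called 18 of them (28.1%) at an adjusted p under 0.05, against 25.0% of all genes tested. The 7 higher in iREC stood against a background of 13.2% of all genes called higher, and the 11 lower against 11.7% called lower. Protein-coding genes above the same mean count were called in 27.5%, and lincRNA rows under 100 counts in 22.7%. The share of members called was thus near the background, but it includes members kept through the group in which they were high. Of the 43 members that reached 100 counts in both groups, 5 were called. That limit leaves out genes that are low in either group, and so many large differences. The share of all genes called under the same limit was not computed, so this count has no matching background. Without both F samples, 24 members were called (37.5%), 12 higher and 12 lower, against 27.4% of all genes in that fit, 14.6% higher and 12.8% lower.

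The median log2 fold change (iREC over iEC) was -0.05 for the members, 0.02 for all genes tested and -0.05 for the protein-coding genes. The median size of the log2 fold change, without sign, was 0.54 for the members, 0.39 for all genes and 0.33 for the protein-coding genes. The value of the members includes the genes kept through the group in which they were high. The groups did not overlap in CPM in 23 members, against 29.1% of all genes tested. These were the 18 called and 5 that did not pass the test: LINC00665, LINC00667, MANCR, LINC01184 and AC026401.3, with adjusted p of 0.184, 0.121, 0.0601, 0.0990 and 0.101. Among the called members, 15 differed by at least 2-fold and 6 by at least 8-fold. The share of all genes at these folds was not computed. Of the 6, all but MIR503HG had a mean of 3.5 to 18.5 counts in the lower group. They were kept through the group in which they were high.

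**Figure D2:**
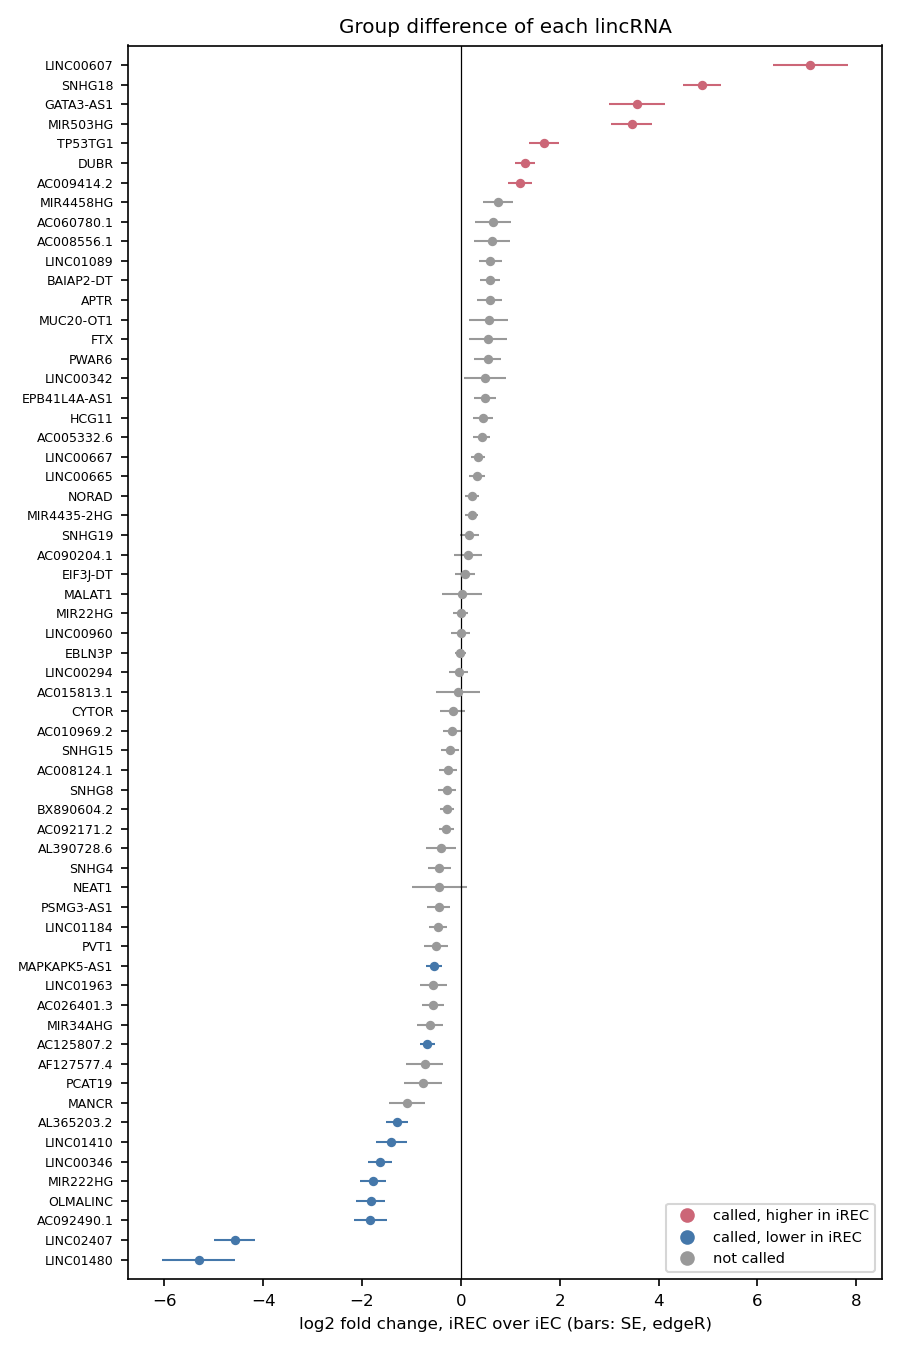
Fitted log2 fold change of 62 lincRNAs, iREC over iEC, with the standard error as a bar; red and blue mark called members, grey those not called, and 2 members are counted in the text but not drawn. LINC00607 stands at 7.07 and LINC01480 at -5.30, and the grey points other than MANCR (-1.09) lie between -0.77 and 0.75.

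The 2 nuclear scaffold RNAs did not pass the test. MALAT1 (chr11:65497688-65506516, plus strand, 1 exon) had 1154, 691, 1904 and 1360 CPM in iEC and 1149, 1358, 2128 and 555 CPM in iREC; here and below, values are in the order C, D, E, F. Sample E was the highest of each group, and the lowest were iEC D and iREC F. Its log2 fold change was 0.02 ± 0.41 (SE, 4 samples per group, adjusted p 0.975 by edgeR), and its sign changed with single samples left out, from -0.32 without iREC E to 0.28 without iEC E. Histone genes, whose messenger RNAs mostly end without a poly(A) tail, summed over 58 rows to 105 to 218 CPM in iEC and 77.1 to 115 in iREC. In iEC this sum was lowest in D and highest in F, and in iREC lowest in C and highest in E. The part of the selection of poly(A) RNA in the spread of MALAT1 was not tested.

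NEAT1 (chr11:65422774-65445540, plus strand) had 200.3, 212, 455 and 197 CPM in iEC and 92.9, 164, 453 and 77.5 CPM in iREC. Both E samples stood far above all others, and the remaining iREC samples lay below the remaining iEC samples. On the log2 scale the difference was -0.43 ± 0.55 (SE, adjusted p 0.602 by edgeR). Without iREC E it was -1.26 (adjusted p 0.0553), and without iEC E it was -0.04 (adjusted p 0.972). With the replicate letter as a block, edgeR gave -0.71 (adjusted p 0.0881). By limma-voom, without that block, it was -0.71 (adjusted p 0.354).

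The protein partners of these RNAs gave few calls, while 25.0% of all genes tested were called. Of 11 paraspeckle protein genes, which include NONO and SFPQ, 0 were called, with a median log2 fold change of -0.17, and their largest difference was -0.34 ± 0.20 (SE) in HNRNPH3. Of 9 nuclear speckle protein genes, which include SON and SRRM2, 0 were called as well, with a median of 0.00172. In both lists 0 genes had an unadjusted p under 0.05 in edgeR, and DESeq2 and limma-voom called 0. Of 12 genes for the enzymes that cut and bind the MALAT1 end, 11 were tested and 1 was called: RPP40, a subunit of RNase P, had 19.4 ± 2.37 CPM in iEC and 12.9 ± 1.07 in iREC (SD, n = 4), which edgeR fitted as a log2 difference of -0.58 ± 0.15 (SE, adjusted p 0.0222). In this list 6 genes had an unadjusted p under 0.05 in edgeR, and DESeq2 and limma-voom each called 1.

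NORAD (chr20:36045622-36050960, minus strand) had 375, 418, 384 and 513 CPM in iEC and 493, 503, 572 and 408 CPM in iREC. The F sample was the highest in iEC and the lowest in iREC, and through it the groups overlapped. edgeR put the log2 fold change at 0.23 ± 0.15 (SE, adjusted p 0.306), and without both F samples 0.42 (adjusted p 0.0381).

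Among the lncRNAs linked to p53 or stress, TP53TG1 and NORAD were members, and TP53TG1 rose. TP53TG1 (chr7:87325225-87345515, minus strand, 3 exons), named as a target gene of p53, had 2.67, 4.49, 3.73 and 7.44 CPM in iEC and 14.2, 12.8, 16.1 and 15.7 CPM in iREC. Each iREC sample lay above each iEC sample. This amounted to a log2 fold change of 1.68 ± 0.30 (SE, adjusted p 0.00371 by edgeR). Of the list's 3 other rows that were tested, all below 100 counts, LINC-PINT (-3.51, adjusted p 0.00420) and LUCAT1 (-2.22, adjusted p 0.00850) fell, and PURPL was at -1.48 (adjusted p 0.0582).

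Of 6 snoRNA host members, 1 was called, SNHG18, against 25.0% of all genes tested. The 5 not called, SNHG4, SNHG8, SNHG15, SNHG19 and EPB41L4A-AS1, lay between -0.43 and 0.49 on the log2 scale. Their adjusted p by edgeR ran from 0.154 to 0.565. SNHG8 had 27.5, 22.4, 28.5 and 30.1 CPM in iEC and 20.7, 23.8, 16.1 and 28.8 in iREC, and SNHG19 had 11.5, 11, 12.1 and 10.8 CPM and 14.4, 13.2, 8.79 and 14.8 CPM. In both genes iREC E was the lowest of all samples. SNHG15 (-0.22, adjusted p 0.440) was called lower without iEC F (-0.38, adjusted p 0.0450). Host genes of other biotypes or lower counts added 19 tested rows, of which 1 was called, MEG8 (log2 fold change 2.26, adjusted p 0.0483). GAS5 at -0.27 and DANCR at -0.00312 were among the others.

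The snoRNA host that was called was SNHG18 (chr5:9546200-9550609, plus strand, 2 exons), which holds SNORD123. It had 4, 13, 6 and 12 counts in the iEC samples and 223, 220, 267 and 327 counts in the iREC samples. On the CPM scale that was 0.260, 0.822, 0.355 and 0.859 in iEC and 14.6, 15.7, 16.3 and 21.4 in iREC. All iREC samples were high, with an SD of log2 CPM of 0.24, and all iEC samples were near the floor. In log2 terms iREC differed from iEC by 4.88 ± 0.38 (SE, adjusted p 5.80e-05 by edgeR).

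Of 8 host genes of miRNAs, a pair differed, in opposite directions, while 25.0% of all genes tested were called. MIR503HG (chrX:134543337-134546632, minus strand, 5 exons) had 20.2, 36.8, 15.4 and 14.7 CPM in iEC and 229, 267, 350.4 and 110 CPM in iREC. Every iREC sample exceeded every iEC sample, and iREC F was the lowest of its group. The fitted log2 fold change came to 3.46 ± 0.42 (SE, adjusted p 0.000466 by edgeR), and its mean FPKM was 12.8 in iEC and 139.8 in iREC, where MALAT1 had 144.1.

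MIR222HG (chrX:45745211-45770274, minus strand, 2 exons) had 13.9, 10.1, 18.8 and 16.2 CPM in iEC and 5.17, 3.85, 5.01 and 3.21 CPM in iREC. The groups did not overlap, and the log2 fold change was -1.77 ± 0.26 (SE, adjusted p 0.00120 by edgeR). The rows of the miRNA genes themselves held few reads over the 8 samples: 271 for MIR503, 88 for MIR424, 89 for MIR221 and 6 for MIR222. Libraries of poly-T-selected RNA do not measure the mature miRNAs printed above, so nothing is known here of their levels.

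The other 6 miRNA hosts (MIR22HG, MIR34AHG, MIR4435-2HG, MIR4458HG, CYTOR and FTX) were not called, with log2 fold changes from -0.62 to 0.75. MIR22HG had 43.6, 48.5, 63.9 and 49.3 CPM in iEC and 55.7, 45.4, 47.3 and 56.4 in iREC, with a log2 fold change of -0.00350 ± 0.15 (SE, adjusted p 0.990 by edgeR). MIR4458HG was at 0.75 (adjusted p 0.0986) and was called without iEC F (0.97, adjusted p 0.0449). Among the 10 hosts tested outside the set, MIR217HG rose (log2 fold change 3.05, adjusted p 0.0120) and MIR155HG fell (-2.87, adjusted p 0.00940).

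**Figure D3:**
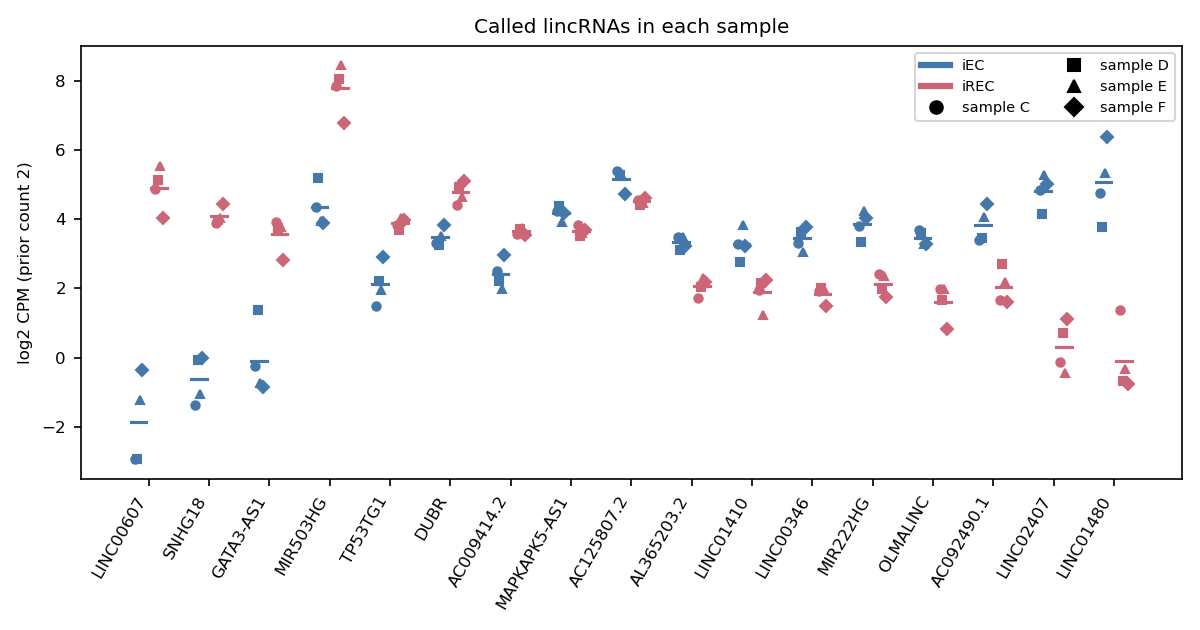
Log2 CPM (prior count 2) of 17 of the 18 called lincRNAs in each sample, ordered by log2 fold change, with 1 symbol per replicate letter and the group mean as a line. In each of the 17 the 4 iREC samples (red) lie wholly above or wholly below the 4 iEC samples (blue), and LINC00607, SNHG18, GATA3-AS1, LINC02407 and LINC01480 are near the floor in 1 group.

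LINC00607, reported as enriched in endothelial cells, was the largest difference by fitted log2 fold change. The gene (chr2:215611563-215843722, minus strand, 16 exons) had 0, 0, 5 and 9 counts in iEC and 443, 492, 758 and 248 counts in iREC. That gave 0.235 ± 0.306 CPM in iEC and 31.7 ± 12.5 CPM in iREC (SD, n = 4). The RNA was thus at or near 0 in one endothelial group and clearly detected in every sample of the other. The log2 fold change was 7.07 ± 0.76 (SE, adjusted p 0.000264 by edgeR), a value that rests on few iEC counts, with 0 in 2 iEC samples. It was 8.15 without iEC F, 8.37 without both F samples and 7.92 by limma-voom. The other listed lncRNAs with endothelial reports did not pass the test: TUG1 had 171 ± 19.1 and 173 ± 18.6 CPM (log2 fold change 0.02 ± 0.13), and SENCR 10.4 ± 1.49 and 10.6 ± 1.97 CPM (0.02 ± 0.20), with adjusted p of 0.944 and 0.965. LINC00520 was below the filter. No pluripotency lncRNA was a member, and LINC-ROR had a mean of 0.875 counts. TUNAR, listed under the biotype protein-coding and far below 100 counts, rose from 0.426 to 1.26 CPM (log2 fold change 1.53, adjusted p 0.0429 by edgeR).

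GATA3-AS1 (chr10:8050450-8053484, minus strand, 2 exons) overlaps the body of GATA3, which encodes a transcription factor, on the opposite strand, and shares 0 exon bases with it. It had 0.715, 2.46, 0.473 and 0.430 CPM in iEC and 14.9, 13.3, 13.4 and 7.01 CPM in iREC. The groups were well apart, with iEC D above the other iEC samples and iREC F below the other iREC samples. On the log2 scale the difference was 3.56 ± 0.57 (SE, adjusted p 0.00199 by edgeR), and 4.47 without iEC D.

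Beside TP53TG1, 2 smaller rises were of at least 2-fold. DUBR (chr3:107240692-107326964, plus strand, 7 exons), named as a Dppa2 upstream binding RNA, had 9.82, 9.48, 11.4 and 14.2 CPM in iEC and 21.3, 30.4, 25.1 and 34.1 CPM in iREC, which edgeR fitted as a log2 difference of 1.30 ± 0.20 (SE, adjusted p 0.00169). AC009414.2 (chr2:36354749-36355114, minus strand, 1 exon of 366 bases) had 5.53, 4.55, 3.85 and 7.73 CPM in iEC and 11.7, 13.1, 13.3 and 11.7 CPM in iREC, a log2 fold change of 1.20 ± 0.24 (adjusted p 0.00634). In both the F sample was the highest iEC sample, still below the lowest iREC sample.

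The 2 largest falls were of RNAs with 38 counts or fewer in each iREC sample. LINC01480 (chr19:41535183-41536904, plus strand, 1 exon) had 417, 215, 682 and 1163 counts in iEC and 38, 7, 11 and 7 counts in iREC. In CPM these were 27.1, 13.6, 40.4 and 83.2 against 2.49, 0.4996, 0.672 and 0.458, so the iEC samples themselves spread widely, with D lowest and F highest. edgeR put the log2 fold change at -5.30 ± 0.74 (SE, adjusted p 0.000946). It was -6.22 without iREC C, -4.71 without iEC F and -4.46 without both F samples. LINC02407 (chr12:76259839-76305131, plus strand, 5 exons) had 440, 280, 656 and 449 counts in iEC and 12, 21, 10 and 31 counts in iREC. Its log2 fold change was -4.57 ± 0.42 (SE, adjusted p 0.000110 by edgeR), with iREC F the highest of its group. On the FPKM scale they were in places 9 and 10 of the members, with iEC means of 24.0 for LINC01480 and 24.3 for LINC02407.

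A middle group fell by between 2-fold and 4-fold. AC092490.1 (chr12:8788257-8795789, plus strand) averaged 14.9 ± 5.28 CPM in iEC and 4.19 ± 1.58 in iREC (SD, n = 4), or -1.83 ± 0.34 as a log2 fold change. OLMALINC (chr10:100373513-100454043, plus strand), named for oligodendrocyte maturation, had 12.8, 12.01, 9.53 and 9.66 CPM in iEC and 3.86, 3.07, 3.85 and 1.64 CPM in iREC, a log2 fold change of -1.82 ± 0.29. LINC00346 (chr13:110863987-110870251, minus strand) had 10.99 ± 2.46 and 3.51 ± 0.56 CPM (log2 fold change -1.64 ± 0.24). In these 3 genes each iEC sample exceeded each iREC sample, and edgeR's adjusted p ran from 0.00129 for LINC00346 over 0.00210 for OLMALINC to 0.00424 for AC092490.1. LINC01410 (chr9:62801461-62813486, plus strand) had 9.88 ± 3.05 and 3.73 ± 1.09 CPM (-1.40 ± 0.31, adjusted p 0.0106), and AL365203.2 (chr10:32887255-32889311, minus strand) had 10.03 ± 1.36 and 4.10 ± 0.73 CPM (-1.29 ± 0.22, adjusted p 0.00269).

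The smallest called falls were under 2-fold. AC125807.2 (chr12:3041437-3044950, plus strand) had 41.9, 38.9, 38.3 and 26.5 CPM in iEC and 23.5, 21.2, 22.0 and 24.4 CPM in iREC, with a fitted log2 difference of -0.68 ± 0.16 (SE, adjusted p 0.0130 by edgeR). Its iREC samples lay close together, with an SD of log2 CPM of 0.09, and each was below every iEC sample. MAPKAPK5-AS1, named after its values were seen, shares 792 exon bases with MAPKAPK5 on the opposite strand. It had 18.2 ± 2.48 and 12.5 ± 1.17 CPM (SD, n = 4) and a log2 fold change of -0.54 ± 0.16 (adjusted p 0.0364), and it was not called without iEC C, D or F or without iREC D, E or F (adjusted p 0.0526 to 0.112).

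The 45 named members that were not called lay between -1.09 (MANCR) and 0.75 (MIR4458HG), with adjusted p from 0.0600 to 0.990. Several passed the threshold when a single sample was left out. BAIAP2-DT (0.60, adjusted p 0.0600) was called without iEC F (0.77, adjusted p 0.0174) or iREC F (0.70, adjusted p 0.0318). HCG11 (0.60, adjusted p 0.0232) and LINC01089 (0.72, adjusted p 0.0416) were called without iREC F, and AF127577.4 (-1.15, adjusted p 0.0394) without iREC E. The part of the marker levels of iREC F in these values was not tested. The authors' deposited table gives 19 members an adjusted p under 0.05, 7 higher and 12 lower. They included all 18 called here, with 0 of opposite sign, and MANCR, with an adjusted p of 0.0190 there. MANCR was also called here by DESeq2 (adjusted p 0.0190), by limma-voom (0.0374) and with no filter on low counts (0.0456).

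Next, each lincRNA was set beside its nearest protein-coding gene in the table. The median gap between gene bodies was 4380 bases over the 63 named members, and 32 had the neighbour within 5000 bases. These were 8 of the 18 called members and 24 of the 45 not called, so many neighbours of called members were distant. For the 18 called members, 12 neighbours were called (66.7%), 9 in the same and 3 in the opposite direction. For the members not called, 10 of 37 tested neighbours were called (27.0%), against the background of 25.0%. The difference between these 2 shares was not tested. Without both F samples the called members still had 12 called neighbours of 18. The log2 fold changes of lincRNA and neighbour correlated with r = 0.40 (Pearson) and rho = 0.45 (Spearman) across 55 pairs. This is a description, since all pairs come from the same 8 libraries and were not independent. Over the 49 pairs whose lincRNA differed by less than 4-fold, r was 0.44 and rho 0.45.

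**Figure D4:**
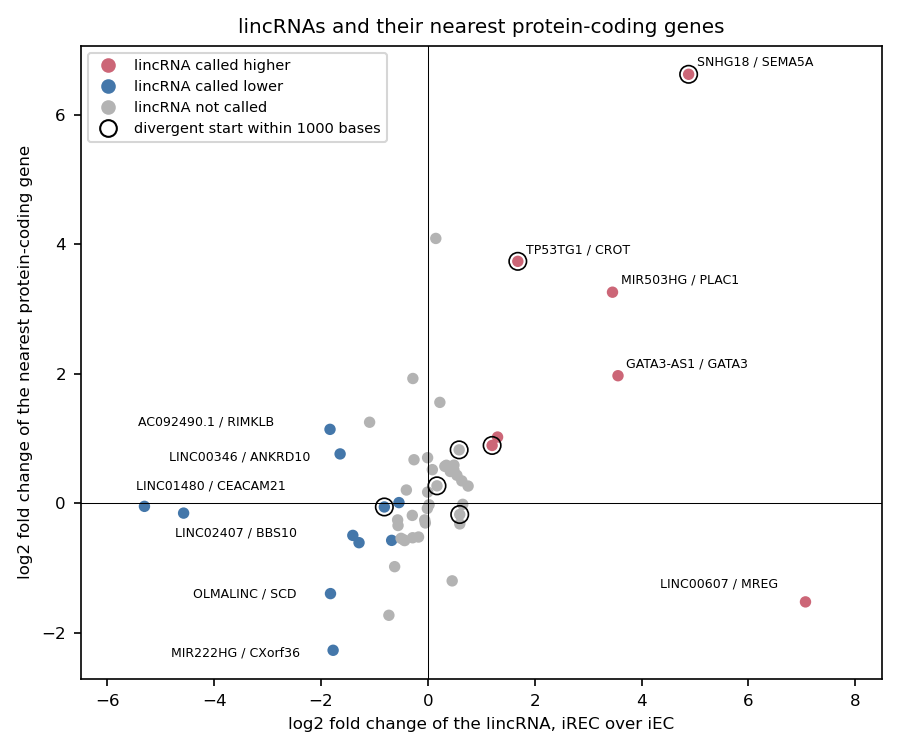
Log2 fold change of the nearest protein-coding gene against that of the lincRNA, for 55 pairs, coloured by the lincRNA's call; rings mark divergent starts within 1000 bases. SNHG18 with SEMA5A and TP53TG1 with CROT stand high on both axes, while LINC00607 with MREG lies at 7.07 against -1.53.

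Divergent pairs, in which the genes run away from each other from starts within 1000 bases on opposite strands, numbered 7. In 4 of them the neighbour was called, each time with the sign of its lincRNA, while 25.0% of all genes tested were called. Opposite-strand pairs with starts as close but overlapping bodies were not counted. These were MAPKAPK5-AS1 with MAPKAPK5, PSMG3-AS1 with PSMG3, AC060780.1 with NBR1 and MIR22HG with WDR81. Of their neighbours PSMG3 alone was called (-0.57, adjusted p 0.0219 by edgeR). SEMA5A, a transmembrane semaphorin of axon guidance that starts beyond the 124 bases printed above, had 0.520, 3.35, 1.66 and 3.65 CPM in iEC and 213, 247, 304 and 143 CPM in iREC. Its log2 fold change was 6.63 ± 0.53 (SE, adjusted p 6.36e-05 by edgeR), beside 4.88 for SNHG18. The 2 genes differed in their order within iREC: SNHG18 was highest in F, SEMA5A lowest in F.

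CROT, a peroxisomal carnitine acyltransferase, had 14.9, 23.2, 11.5 and 23.0 CPM in iEC and 261, 221, 347 and 141 CPM in iREC, which edgeR fitted as a log2 difference of 3.74 ± 0.34 (SE, adjusted p 0.000105), beside 1.68 for TP53TG1. CRIM1, a membrane protein that binds bone morphogenetic proteins, had 672 ± 92.0 and 1248 ± 136 CPM (SD, n = 4) with a fitted log2 difference of 0.89 ± 0.14 (adjusted p 0.00210), beside 1.20 for AC009414.2. RSBN1L rose (0.82, adjusted p 0.00178) beside APTR, which was at 0.59 and not called. BAIAP2 and TRAF7, beside BAIAP2-DT and SNHG19, were not called.

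Other called pairs were further apart or overlapped. GATA3 had 25.9, 69.9, 20.1 and 27.0 CPM in iEC and 181, 135, 167 and 77.5 CPM in iREC, with iEC D highest and iREC F lowest of their groups as in GATA3-AS1. Its log2 fold change was 1.97 ± 0.42 (SE, adjusted p 0.00848 by edgeR). PLAC1, a gene best known from placenta and 19205 bases from MIR503HG, had 0.355 ± 0.0825 and 3.47 ± 1.10 CPM (log2 fold change 3.26, adjusted p 0.000358). CXorf36, the nearest coding gene to MIR222HG at 544309 bases, had 427 ± 106 and 88.4 ± 15.3 CPM (-2.27, adjusted p 0.000116). SCD, the stearoyl-CoA desaturase gene 8678 bases from OLMALINC, had 1143 ± 134 and 434 ± 61.8 CPM (-1.40, adjusted p 0.000235). BBX, 195971 bases from DUBR, also moved in the direction of its lincRNA (1.02, adjusted p 0.00123 by edgeR). So did TEAD4, a transcription factor of the Hippo pathway 763 bases from AC125807.2 (-0.57, adjusted p 0.00895).

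In 3 called pairs the signs were opposite. MREG, 99082 bases from LINC00607, had 14.6 ± 3.34 and 5.08 ± 0.85 CPM (SD, n = 4) with a fitted log2 difference of -1.53 ± 0.23 (SE, adjusted p 0.00142 by edgeR). RIMKLB rose (1.14, adjusted p 0.00173) beside AC092490.1, and ANKRD10 rose (0.76, adjusted p 0.0249) beside LINC00346. The neighbours of the 2 largest falls did not pass the test: CEACAM21 beside LINC01480 was at -0.05 (adjusted p 0.962) and BBS10 beside LINC02407 at -0.15 (adjusted p 0.520). The same held for CCDC7 beside AL365203.2, CNTNAP3C at 1348430 bases from LINC01410, and MAPKAPK5 beside MAPKAPK5-AS1 (adjusted p 0.203, 0.302 and 0.968).

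Replicate spread was measured as the SD of log2 CPM over the 4 samples of a group. The median over the members was 0.35 in iEC and 0.30 in iREC, against 0.24 and 0.22 for protein-coding genes above the same mean count. These sets share only that lower limit and were not matched for level. Median FPKM was 3.40 for the members and 7.81 for the protein-coding genes. The part of level in the difference of spread was not tested. In iEC 40 members, and in iREC 42, lay above the median of the protein-coding genes. The SD was larger in iREC than in iEC for 32 members. As a coefficient of variation of CPM, the members spanned 2.46% to 130.4% in iEC, and 2.88% to 94.8% in iREC.

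**Figure D5:**
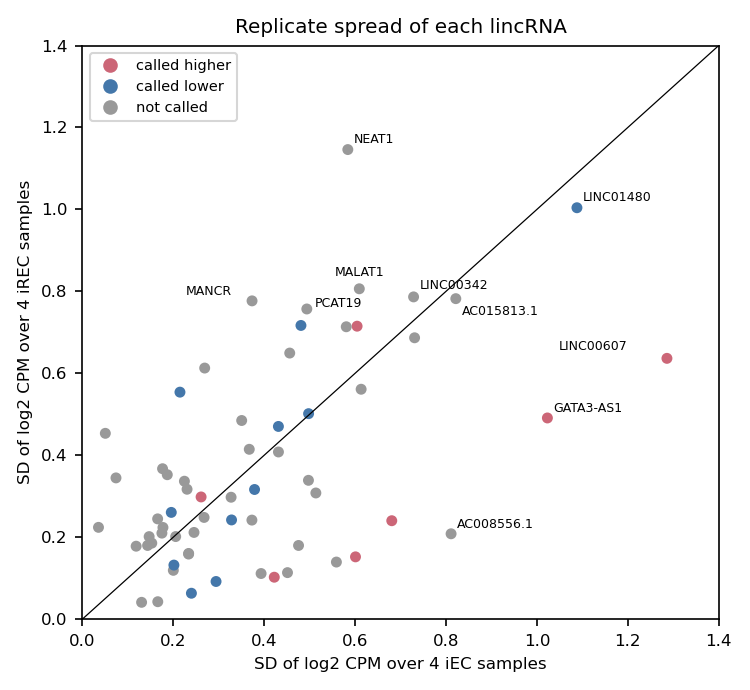
SD of log2 CPM over the 4 iREC samples against that over the 4 iEC samples for 63 lincRNAs, with the diagonal of equal spread. LINC00607 (1.29), LINC01480 (1.09) and GATA3-AS1 (1.02) have the largest SD in iEC, and NEAT1 (1.15) and LINC01480 (1.004) in iREC.

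The members with the largest SD in a group were LINC00607, NEAT1, LINC01480, GATA3-AS1 and AC015813.1. In LINC00607 and GATA3-AS1 the spread was in the group with few counts. NEAT1 spread among samples of 77.5 CPM and more, with an SD of 1.15 in iREC. AC015813.1 (chr17:57989039-57994850, minus strand, 1 exon) had 22.7, 18.7, 30.2 and 7.94 CPM in iEC and 14.7, 19.98, 32.8 and 8.91 CPM in iREC, so that E was the highest and F the lowest in both groups. Its log2 fold change was -0.06 ± 0.45 (SE, adjusted p 0.941 by edgeR).

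The sample that was highest or lowest was not the same for all members. Of the 63 named, iREC F was the lowest of its group in 33 (52.4%), against 33.7% of all genes tested. iREC E was the highest in 27 (42.9%), against 28.6%. In 10 members (15.9%), sample E was the highest of both groups, against 6.82% of all genes, among them MALAT1, NEAT1, FTX, MIR34AHG and AC015813.1. The library of iREC E differed in other ways. In it, 16559 genes reached 10 counts, while the range over the remaining samples was 14282 to 15536, and its 589 sense intronic rows summed to 451 CPM against 190 to 315. iEC E lay within these ranges, with 15165 such genes and 298.5 CPM in those rows. The part of these library differences in the spread of the lincRNAs was not tested.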

How the data were processed

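Per the labels' protocols, messenger RNA was selected with poly-T beads and the second strand was made with dUTP; per the submitters' processing notes, fastp and HISAT2 2.0.5 were used with hg38. The counting program and its use of strand are not given in the sources used here. The authors deposited 1 table with raw read counts per gene and sample. In the authors' normalized signal, each sample's raw counts are divided by a size factor of that sample. The authors' FPKM equals that signal scaled by gene length and a common library size. The authors' log2 fold changes are of iREC over iEC, and no header names the test behind the deposited p-values. There were 0 unused columns of per-sample values. Gene identifiers, starts and ends of all 30386 rows match GENCODE release 29.

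From the counts, edgeR 4.0.16 (filterByExpr, TMM, quasi-likelihood F-test, group as the only term, all 8 samples, R 4.3.3) was fitted to the whole table, with Benjamini-Hochberg adjustment over 15330 genes and calls at an adjusted p under 0.05. SE is the coefficient divided by the square root of F. CPM uses TMM-scaled libraries, and log2 CPM a prior count of 2. Before use, the fit was tested on simulated data. Alternatives were DESeq2 1.42.0 and its size factors, limma-voom (limma 3.58.1), library size only, 2 filters, protein-coding and lincRNA rows only, a replicate block, other count thresholds and each sample left out. Leaving out both F samples was added after seeing the data.

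The members and lists were chosen with earlier results of these data known. Named were MALAT1 and NEAT1, the 10 largest rises and falls among called members, called list members, the 8 highest in FPKM, the 5 largest SDs, 3 rows on each side of the threshold, and neighbours of these. BAIAP2-DT, HCG11, LINC01089, APTR, MAPKAPK5-AS1, the members whose groups did not overlap without a call, and members and other lncRNAs of the fixed lists that were not called lie outside that rule and were named after their values were seen. A Y-linked member is counted and not named. The result of 1 further member is not reported here.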

Additional observations from a re-analysis of the deposited data

Results flagged for a closer look

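Within each group of 4 samples, the highest and lowest value was compared with the gap to its nearest neighbour over the group's range, for the named lincRNAs and the library sums, 66 groups in all. A sample far from the other 3 was found in 4 groups, where chance gives about 3.3. NEAT1 had 454.8 CPM in iEC E, against 197 to 211.5 in the other iEC samples. GATA3-AS1 had 2.465 CPM in iEC D, against 0.430 to 0.715. LINC01480 had 2.486 CPM in iREC C, against 0.458 to 0.672. The summed histone genes had 77.14 CPM in iREC C, against 113.4 to 114.6. The calls of GATA3-AS1 and LINC01480 were kept in all 17 alternatives, but without the sample that stood apart the log2 fold change moved from 3.56 to 4.47 for GATA3-AS1 and from -5.30 to -6.22 for LINC01480.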

How the results depend on the processing

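Of the 18 calls, 17 held in each of 17 alternatives, and MAPKAPK5-AS1 in 8. With a minimum mean of 50 counts, 37 of 118 lincRNAs were called (20 higher, 17 lower, median log2 fold change 0.029), and with 200, 7 of 32 (3 higher, 4 lower). Without both F samples 12 members were called higher. The members' median ranged from -0.14 (without iEC D) to -0.014 (without iEC F) with 1 sample left out. No scaling moved the median of all genes by over 0.1; no filter and DESeq2, which keep all rows, put it at 0.15 and 0.16. MALAT1's log2 fold change turned negative with no filter (-0.0087), limma-voom (-0.041) and the replicate block (-0.032), and ranged from -0.32 to 0.28 with 1 sample left out. MIR22HG turned positive with library size only (0.00045), the stricter filter (0.0052), limma-voom (0.0028), the replicate block (0.0046) and protein-coding and lincRNA rows only (0.00091), and ranged from -0.087 to 0.12 with 1 sample left out. The ranges were -0.016 to 0.42 for AC090204.1 and -0.45 to 0.23 for AC015813.1. None of these 4 was called under any of the 17 alternatives, and the cause of the changes of sign was not tested.

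The replicate block kept 17 calls and added MIR34AHG, so it called 18 members (7 higher, 11 lower). Correlations of the deviations of same-lettered samples were 0.168 for C, -0.0794 for D, 0.0291 for E and 0.250 for F, so the letters were not taken to pair the samples. The members had a median of 185 counts, and no limit of detection was measured. RNAs near the floor in a group have fitted fold changes that rest on few counts.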
